A study of Mus musculus with 36 samples.

Results

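MicroRNA loci were examined in extracellular vesicles (EVs) and in the cultured fetal mouse neural stem cells (NSCs) that released them. Of 1180 microRNA loci listed in the count tables, 40 had at least 30 counts summed over all 36 libraries and are described here. The summed count therefore chose the loci, and the 40 loci had 79772 counts, of which 68062 were in cells and 11710 in EVs. All 40 reached 30 counts in the cell libraries alone, and 15 also reached it in the EV libraries alone. Just inside the limit stood Mir193a with 31 counts and Mir184 with 38, and just outside it Mir210 with 28, Mir542 with 27 and Mir8105 with 27.

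The libraries came from 3 pregnancies of C57BL/6J mice, labelled sets 3, 4 and 5. The labels give the genotype as WT, whereas the methods of the study name the strain C57BL/6J (Ai14), so all libraries share whatever that line carries. At gestational day 12.5 the dorsal telencephalon, the wall of the forebrain that becomes the cortex, was pooled by sex within each pregnancy and grown as neurospheres, so there were 6 cultures, named 3F, 4F, 5F, 3M, 4M and 5M for the set and the sex (F, female, M, male). Each culture was kept for 5 days at 0, 120 or 320 mg/dL ethanol (0, 26 or 70 mM), the control being the same medium without ethanol, and each culture and dose gave 1 EV and 1 cell library, which makes 18 EV and 18 cell libraries. A library stands for pooled embryos of 1 pregnancy after 7 to 10 passages, EVs were concentrated by filtration and ultracentrifugation, and the total RNA was depleted of ribosomal RNA. As these are bulk samples, fewer cells of a type and less RNA per cell cannot be told apart.

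A microRNA gene is transcribed as a long primary transcript. The nuclear complex of Drosha and Dgcr8 cuts a hairpin precursor out of it, Xpo5 exports the hairpin, and Dicer1 trims it to a mature strand that an Argonaute protein holds. The bases at the start of that strand, the seed, pair with target mRNAs and lower their translation and stability. In the developing cortex the Mir17 cluster is known for its part in progenitor proliferation, and let-7, Mir9 and Mir124 microRNAs for their parts in differentiation and neuronal identity. The library method records RNA of all lengths above 15 bases, so a count on a microRNA locus may be a mature strand, a hairpin or a piece of a primary transcript, and the tables do not separate them.

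The sequences below belong to the loci on which the comparisons turn. They are mature strands of RefSeq (GRCm38.p6), written 5′ to 3′ with the seed, bases 2 to 8, in capitals, and grouped by shared seed where one was shared. RefSeq entries of this kind were found for 38 of the 40 loci, and Mir320 and Mir5099 are the others.
miR-17-5p: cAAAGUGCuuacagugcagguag
miR-20a-5p: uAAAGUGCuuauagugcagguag
miR-18a-5p: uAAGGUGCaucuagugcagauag
miR-19a-3p: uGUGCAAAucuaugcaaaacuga
miR-19b-3p: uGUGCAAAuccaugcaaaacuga
let-7i-5p: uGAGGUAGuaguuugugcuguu
let-7c-5p: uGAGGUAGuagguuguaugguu
miR-29a-3p: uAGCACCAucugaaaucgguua
miR-29b-3p: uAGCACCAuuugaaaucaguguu
miR-221-3p: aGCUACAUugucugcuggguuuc
miR-222-3p: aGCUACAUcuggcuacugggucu
miR-7652-3p: uCUGGCUUuccuguggcuucu
miR-7688-3p: uCUGGCUUaugccuagcuuuc
miR-6240: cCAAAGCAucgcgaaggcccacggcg
miR-1983: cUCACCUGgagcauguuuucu

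Among the 40 loci, 6 seeds were shared by a pair of loci each. Within these pairs, miR-17-5p and miR-20a-5p differed at 2 of 23 bases, miR-19a-3p and miR-19b-3p at 1 of 23, let-7i-5p and let-7c-5p at 4 of 22, miR-29a-3p and miR-29b-3p at 4 of 22, and miR-221-3p and miR-222-3p at 12 of 23. A pair of loci that lie on different chromosomes, Mir7652 and Mir7688, share the seed CUGGCUU. For Mir6240, Mir5099 and Mir1983, which hold the largest counts beside let-7i, the whole hairpin is shown in place of a mature strand alone, with a listed mature strand in capitals.
Mir6240: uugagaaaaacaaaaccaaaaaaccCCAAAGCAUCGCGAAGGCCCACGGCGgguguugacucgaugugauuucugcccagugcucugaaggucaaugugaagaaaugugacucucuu
Mir5099: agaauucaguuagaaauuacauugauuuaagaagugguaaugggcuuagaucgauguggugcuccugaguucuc
Mir1983: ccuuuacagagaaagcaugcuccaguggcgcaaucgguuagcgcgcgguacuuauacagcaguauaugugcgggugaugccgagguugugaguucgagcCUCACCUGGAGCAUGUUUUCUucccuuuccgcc

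On GRCm39, with the GENCODE annotation, Mir6240 lies at chr5:114990009-114990125 and Mir5099 at chr12:36866204-36866277, neither of them within an annotated gene. Mir6240 resembles a stretch of the large ribosomal RNA, and 9 other sites of the genome matched its hairpin at 80% identity or more, the best at 94.5%. Mir1983 lies at chr13:22081088-22081219, partly over the transfer RNA gene n-TItat14 and in an intron of the lncRNA Gm56563, and 3 other sites matched its hairpin, the best at 92.6%. No such other site was found for Mir5099 or for let-7i, which lies at chr10:122821545-122821629 in an exon of the lncRNA Gm63655. Reads of a locus with other copies can be split or lost in counting, and how multiply aligned reads were treated is not given in the sources used here, so the levels of Mir6240 and Mir1983 are uncertain.

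Total counts, in units of 1000000, were 0.959 to 5.51 per library in EVs and 26.6 to 55.3 in cells. The number of the 40 loci with a count was 6 to 30 per EV library (median 24) and 37 to 40 per cell library. A level of 3 counts, taken as the floor, was 0.544 to 3.13 CPM (counts per 1000000 counts of the library) in an EV library and 0.0543 to 0.113 CPM in a cell library. Floors and intervals of single libraries cover counting error only. In cells the 9 NSC markers checked summed to 3161 to 6069 CPM, with Nes, Pax6, Vim and Fabp7 present in every library. Markers of other cell types were counted too. The 4 neuron markers summed to 566 to 1233 CPM, the 5 of the oligodendrocyte lineage to 72.0 to 238.5 CPM and the 3 of astrocytes to 21.4 to 344 CPM. The 7 markers of microglia and blood summed to 0.565 to 1.28 CPM. Those of endothelium and mesenchyme, 3 each, summed to 0.887 to 3.27 and 0.551 to 3.42 CPM. Sox2 and Aqp4, an NSC and an astrocyte marker, had no count in any library. Most protein-coding genes inside another gene had no count, as described below, and whether Sox2 or Aqp4 lies so was not examined. Their zeros are therefore not read as absence.

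Many microRNAs known from neural progenitors had no count at all, in EVs or in cells. Of the 1180 listed loci, 1052 (89.2%) had none, 88 had 1 to 29 counts with 576 counts together, and 40 are those described. Where the counting can assign reads to a locus, no count among all counts of the cell libraries allows a level of up to 0.00445 CPM there. This limit does not apply to loci inside another gene, such as the Mir9 and Mir106b cluster loci, as described below. The loci without a count include Mir9-1, Mir9-2 and Mir9-3, Mir124a-1, Mir124a-2 and Mir124a-3, the Mir106b cluster with Mir106b, Mir93 and Mir25, all 6 Mir181 loci, all 7 Mir30 loci, Mir92-1 of the Mir17 cluster, and 9 of 11 let-7 loci. Host transcripts of some of them were counted: Mir9-3hg had 20660 counts and Mir124-2hg 4940.

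The place of a locus in the annotation separated the loci with counts from those without. Every one of 917 loci that RefSeq (GRCm38.p6) places wholly inside another gene had no count, whether the host was on the same strand (703 loci), the opposite strand (120) or both (36), where the strand was given. Of 243 loci apart from other genes, 113 had counts and 36 are among the 40. Of 20 partly over another gene, 15 had counts and 4 are among the 40 (Mir1983 over n-TItat14, Mir19b-1 over Mir17hg, Mir219a-1 over Mir219c, Mir24-2 over Mir3074-2). Protein-coding genes followed the same split, as 852 of 878 inside another gene had no count against 912 of 14003 apart from other genes. GENCODE places some of the 40 loci in longer transcripts that RefSeq does not list around them, such as Mir674 in Spred1. A zero at a nested locus is no measure of its microRNA, and Mir124a-3, Mirlet7a-1, Mirlet7d and Mirlet7f-1, which RefSeq places apart from other genes, also had no count.

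Counts were concentrated in a few loci. Mir6240 (23968 counts), Mir5099 (18497), Mirlet7i (7747) and Mir1983 (7245) held 72.0% of the counts of the 40 loci, and the first 10 held 87.7%. Counts were present in all 18 cell libraries for 32 loci and in all 18 EV libraries for 2, Mir6240 and Mir7652. In EVs, 22 loci had a count in at least 9 libraries and 5 had none in any (Mir29b-1, Mir19a, Mir24-2, Mir19b-1 and Mir193a).

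**Figure D1:**
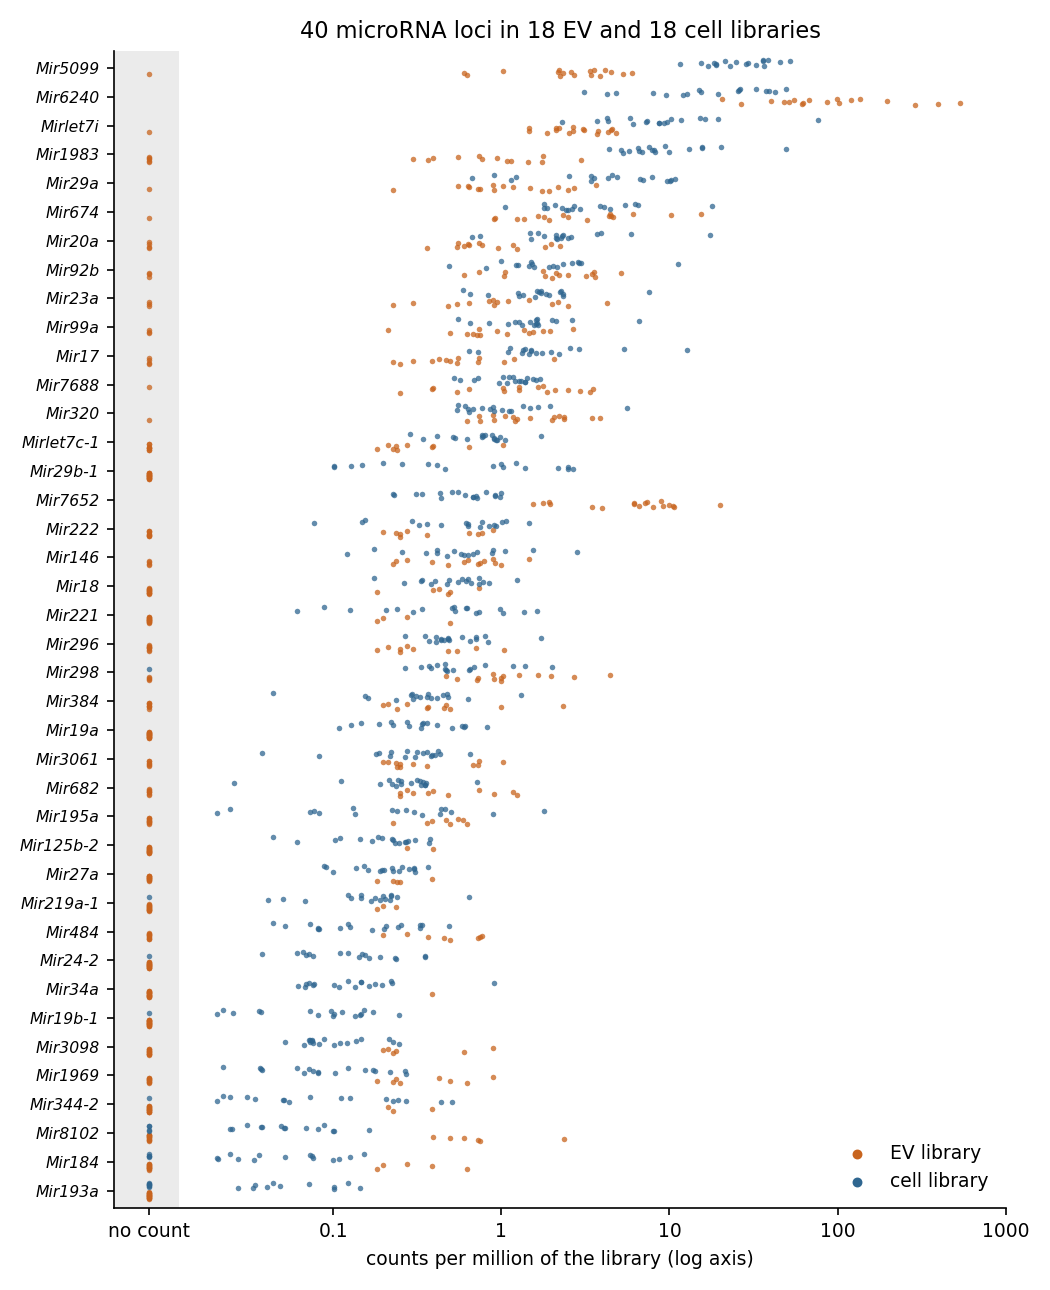
Level of each of the 40 microRNA loci (rows) in each library, as CPM on a log axis, with libraries without a count in the grey column. Orange points are the 18 EV and blue points the 18 cell libraries. Mir7652 is the locus whose EV points all lie above its cell points, and for Mir5099, Mir1983, Mir29b-1 and Mir19a all cell points lie above the EV points.

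The 40 loci took a small share of all counts in both locations. In EVs the share was 49.8 CPM at the lowest, 114 at the median and 565 at the highest, and in cells it was 40.5, 90.7 and 319. Both ranges overlapped over most of their length. Mir6240 alone took 37.1 to 94.3% of the microRNA counts of an EV library (median 71.1%) and 5.25 to 51.8% of those of a cell library (median 19.6%). Without Mir6240 the order of the medians was the opposite, with 14.6, 31.6 and 44.1 CPM in EVs against 32.6, 71.9 and 280 in cells. The EV libraries of culture 5M held the highest shares, and the cell library of culture 3F at 320 mg/dL the highest share among cells.

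**Figure D2:**
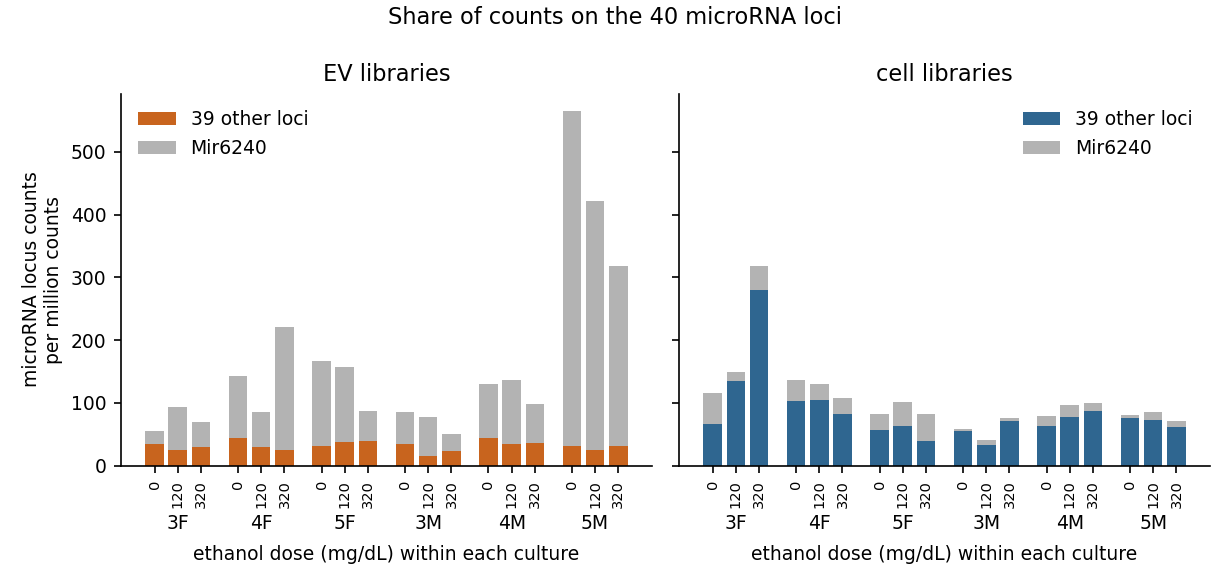
Counts on the 40 microRNA loci as CPM, for EV (left) and cell (right) libraries, with bars ordered by culture and by ethanol dose in mg/dL. Grey is Mir6240 and the coloured part is the other 39 loci. The EV libraries of culture 5M reach up to 565 CPM, mostly on Mir6240, and the 320 mg/dL cell library of culture 3F reaches 319 CPM mostly on other loci.

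The first comparison asked which microRNA loci were higher or lower in EVs than in cells. Mir7652 and Mir6240 were far higher in EVs, Mir298, Mir320, Mir7688 and Mir92b were moderately higher on the TMM scale, and Mirlet7i, Mir29a, Mir17, Mir5099 and Mir1983 were lower. Only 16 of the 40 loci passed the filter on low counts, so the other 24 are described by their values further on. Libraries of both locations entered the filter, but a high level in both was not needed to pass it. Mir17 passed with a median of 0.447 CPM in EVs against 1.504 CPM in cells. Mir7652 passed with 6.89 CPM in EVs against 0.643 CPM in cells. The set of tested loci therefore depended on the levels that were compared. In a model of location, sex and dose with edgeR's quasi-likelihood test and Benjamini-Hochberg adjustment over 15281 genes, 11 of the 16 passed an adjusted p of 0.05, 6 higher and 5 lower in EVs. Of all genes tested 80.5% passed (38.4% higher, 42.2% lower), so a passing locus is the common case here. The median log2 fold change was 0.27 over the 16 loci and -0.08 over all genes.

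These fold changes depend on scaling. TMM, the scaling of the main test, sets the bulk of the genes near 0, whereas scaling by library totals moved the median of all genes to -0.88 and the median of the 16 loci to -0.51. With library totals 10 of the 16 loci passed, 2 higher and 8 lower. Of all 15281 genes 83.2% passed then, 3435 higher and 9279 lower, so most calls of all genes were lower too. Mir7652, Mir6240 and the 5 lower loci kept their direction and passed under both scalings. Mir298, Mir320, Mir7688 and Mir92b stayed positive with library totals, at 0.77, 0.53, 0.42 and 0.07 on the log2 scale, but no longer passed, at adjusted p of 0.0528, 0.0700, 0.142 and 0.842 by edgeR.

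Mir7652 had 387 counts in EVs and 422 in cells, although cells were sequenced far more deeply. It lies at chr11:55392052-55392107 in an exon of G3bp1, on the same strand, the gene of a stress granule protein. Its level was 1.54, 6.89 and 19.97 CPM at the lowest, the median and the highest of the 18 EV libraries, and 0.226, 0.643 and 0.9901 CPM in the cell libraries. Every EV library stood above every cell library, which was the case for 1.95% of the 24180 listed features with at least 30 counts and for this 1 of the 40 loci. On the log2 scale EVs exceeded cells by 4.18 (SE 0.198, adjusted p = 3.63e-20, edgeR), with the same direction in 6 of 6 cultures.

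Mir6240 was at 20.4, 77.5 and 533 CPM in EVs and at 3.09, 17.4 and 49.6 CPM in cells. Its 2 ranges overlapped, and the 3 EV libraries of culture 5M lay above all other EV libraries, at 533, 397 and 288 CPM for 0, 120 and 320 mg/dL. The log2 fold change was 3.85 (SE 0.528, adjusted p = 3.38e-08, edgeR), with 6 of 6 cultures higher in EVs, and it was 2.81 without culture 5M (adjusted p = 5.48e-08, edgeR).

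Mir298 lies on chromosome 2 in an intron of Gnasas1, a lncRNA of the imprinted Gnas locus, and Mir320 on chromosome 14 in an intron of Phyhip, 39 bases from Polr3d. Mir298 had 0, 0.8995 and 4.41 CPM in EVs and 0, 0.472 and 2.00 CPM in cells, and Mir320 had 0, 1.22 and 3.88 CPM against 0.547, 0.901 and 5.57 CPM. Mir7688 had 0, 1.27 and 3.53 CPM in EVs and 0.522, 1.19 and 1.69 CPM in cells. For all 3 the ranges of EVs and cells overlapped widely. On the TMM scale the log2 fold changes were 1.54 (SE 0.410, adjusted p = 0.000911, higher in 5 of 6 cultures), 1.35 (SE 0.331, adjusted p = 0.000376, 5 of 6) and 1.18 (SE 0.258, adjusted p = 8.76e-05, 6 of 6) in that order by edgeR. Mir92b, which shares its seed with Mir92-1 of the Mir17 cluster, was at 0.86 (SE 0.367, adjusted p = 0.0318, edgeR) with 3 of 6 cultures higher and 3 lower, and with counts summed over doses it did not pass (0.55, adjusted p = 0.322, edgeR). Without set 5, Mir298 was at 1.09 (adjusted p = 0.0940), Mir320 at 0.67 (adjusted p = 0.133) and Mir92b at 0.20 (adjusted p = 0.732) by edgeR, and Mir92b also missed the threshold without set 4 (0.96, adjusted p = 0.0724) and without culture 5M (0.68, adjusted p = 0.141).

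Mir5099 stood clearly lower in EVs. Its level was 0, 2.66 and 5.98 CPM in EVs and 11.5, 26.8 and 52.4 CPM in cells, so that every cell library was above every EV library. The log2 fold change was -2.35 (SE 0.262, adjusted p = 3.25e-10, edgeR), lower in 6 of 6 cultures. Mir1983 had the same order, with 0, 0.643 and 2.99 CPM in EVs against 4.40, 8.01 and 49.5 CPM in cells. It stood at -2.76 on the log2 scale (SE 0.406, adjusted p = 1.34e-07, edgeR) and lower in 6 of 6 cultures.

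Mirlet7i, a let-7 member whose family rises as progenitors mature, was at 0, 2.67 and 4.81 CPM in EVs and at 2.31, 8.67 and 76.5 CPM in cells. The ranges met between 2.31 and 4.81 CPM. On the log2 scale it differed by -1.10 (SE 0.369, adjusted p = 0.00699, edgeR), with 4 of 6 cultures lower in EVs. Mir29a, of a family that targets extracellular matrix and DNA methylation genes, changed by -1.21 (SE 0.397, adjusted p = 0.00571, edgeR; 4 of 6 cultures lower), and Mir17 by -1.40 (SE 0.467, adjusted p = 0.00669, edgeR; 5 of 6 lower). Calls in this group leaned on single sets. Without set 3, Mirlet7i was at -0.50 (adjusted p = 0.108) and Mir17 at -0.80 (adjusted p = 0.0561), and without set 4, Mir17 was at -1.31 (adjusted p = 0.0620) and Mir29a at -0.89 (adjusted p = 0.130), all by edgeR. Mir17 levels were 0, 0.447 and 2.05 CPM in EVs and 0.643, 1.504 and 12.7 CPM in cells, and Mir29a levels 0, 0.966 and 3.68 CPM against 0.668, 4.43 and 10.8 CPM.

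Not past the threshold were Mir146 (log2 fold change 0.53, adjusted p = 0.280), Mir674 (0.46, 0.208), Mir23a (0.08, 0.856), Mir99a (0.02, 0.965) and Mir20a (-0.86, 0.0648), all by edgeR. Blocking on culture and dose let Mir20a pass as well, at an adjusted p of 0.0380 by edgeR, which makes 12, where 79.9% of all genes passed. Without the 320 mg/dL cell library of culture 3F, a library left out after the data were seen, Mir674 passed in addition (0.75, adjusted p = 0.0235, edgeR), Mir17 moved to -1.03 and Mirlet7i to -0.72, and both still passed. In cells the level of Mir20a was 0.669, 2.20 and 17.5 CPM, and in EVs 0, 0.641 and 2.24 CPM.

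**Figure D3:**
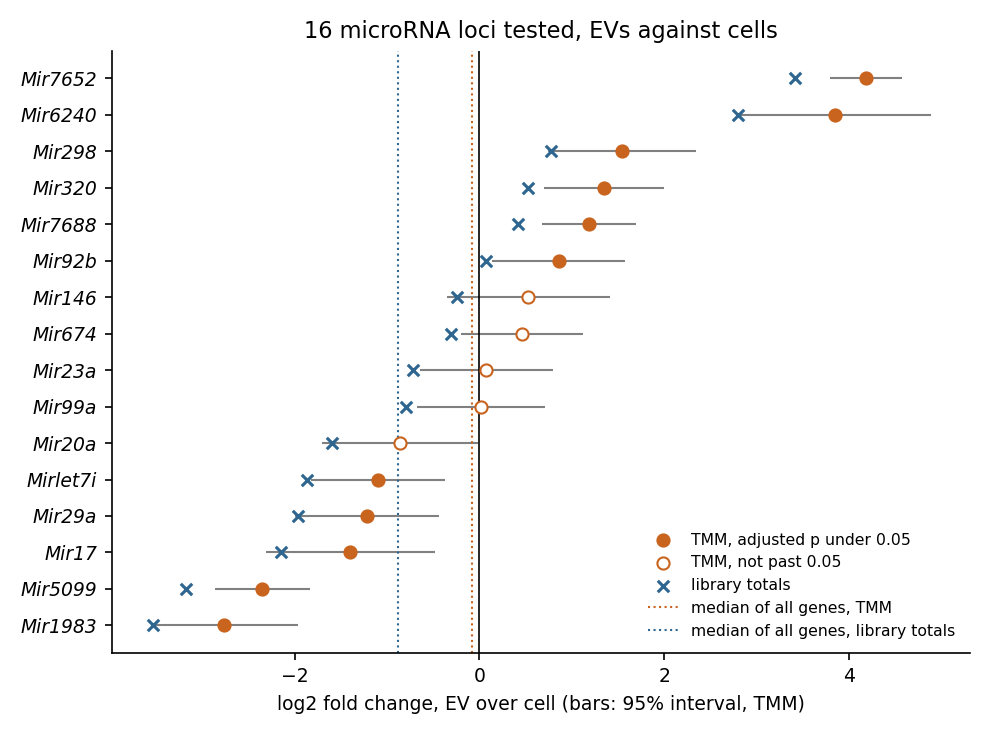
Log2 fold change of EVs over cells for the 16 microRNA loci that passed the filter. Orange circles are the main fit with TMM scaling (filled where the adjusted p was under 0.05) with their 95% intervals, blue crosses the fit with library totals, and dotted lines the median of all genes under each. Mir7652 and Mir6240 lie far to the right and Mir5099 and Mir1983 far to the left under both scalings.

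The 24 loci that did not pass the filter ranged from 649 counts (Mir29b-1) to 31 (Mir193a). Summing the 3 doses of each culture brought 28 of the 40 loci into the test, and 17 passed, 6 higher and 11 lower in EVs, where 70.8% of 19677 genes passed. Without the filter all 40 entered and 23 passed, 6 higher and 17 lower, where 70.9% of 31069 genes passed. For the 5 loci without an EV count the level in cells can be set against 3 counts over all EV libraries, a floor of 0.0511 CPM. Mir29b-1 was at least 18.9-fold higher in cells than this floor, Mir19a at least 7.27-fold, Mir24-2 at least 2.85-fold and Mir19b-1 at least 1.77-fold, whereas Mir193a was under the floor in cells too. Of all 40 loci, 4 (Mir5099, Mir1983, Mir29b-1 and Mir19a) had every cell library above every EV library, which was true of 15.5% of listed features with at least 30 counts. For Mir29b-1 and Mir19a the lowest cell levels were 0.101 and 0.109 CPM. These lie under the floor of 3 counts of every EV library (0.544 to 3.13 CPM). The zeros of single EV libraries thus cannot show a separation by library for these loci.

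Other low loci had ranges that overlapped. Mir222 and Mir221, which target the cell cycle inhibitor Cdkn1b, had 15 and 5 counts in EVs and 419 and 393 in cells. Mir125b-2 and Mirlet7c-1, which lie with Mir99a in the introns of Mir99ahg, had 3 and 11 counts in EVs and 138 and 505 in cells. Mir34a, a target of p53, had 1 count in EVs and 105 in cells, and Mir195a, of the Mir15 and Mir16 seed family, 14 and 220. Mir8102 had 26 counts in EVs and 33 in cells, a pooled level of 0.442 CPM against 0.0490 CPM, with 13 of the 26 in 1 library.

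The clusters showed whether loci cut from 1 primary transcript had the same balance in EVs and cells. Of the 40 loci, 16 lay in 6 clusters, defined as loci within 10000 bases on the same strand. The Mir17 cluster spans 721 bases of chromosome 14 (115281103 to 115281823) in exons of the lncRNA Mir17hg and holds Mir17, Mir18, Mir19a, Mir20a and Mir19b-1. The others are Mir99a with Mirlet7c-1 on chromosome 16, Mir298 with Mir296 on chromosome 2, Mir29b-1 with Mir29a on chromosome 6, Mir23a with Mir27a and Mir24-2 on chromosome 8, and Mir222 with Mir221 on chromosome X.

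Mir29b-1 took 649 of 4057 counts (16%) of the Mir29a and Mir29b-1 pair in cells, and by culture 7.30, 18.2, 12.8, 7.45, 16.8 and 19.0% in 3F, 4F, 5F, 3M, 4M and 5M. In EVs it took 0 of 73, which allows a share of up to 4.11%. The share was lower in EVs in 6 of 6 cultures (exact permutation test over the sign of each culture, two-sided p = 0.03125, the smallest possible with 6 cultures, 0.0938 after adjustment over the 6 clusters). Mir27a and Mir24-2 together took 5 of 73 counts (6.85%) of their cluster in EVs and 238 of 1467 (16.2%) in cells, with the same 6 of 6 cultures lower and the same exact p and adjusted p.

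In the other 4 clusters the exact p was above 0.05. For Mir221 and Mir222 only 5 cultures had counts of the pair in EVs, and the share of Mir221 was lower in EVs in 5 of 5. The exact p of 0.0625 is the smallest possible with 5 cultures, so for this pair the exact test could not fall under 0.05. Mir221 took 5 of 20 counts in EVs and 393 of 812 (48.4%) in cells, Mir296 19.7 against 48.2% of its pair, Mirlet7c-1 16.4 against 31.6% of its pair, and Mir18, Mir19a and Mir19b-1 together 10.4 against 16.7% of the Mir17 cluster, where 4 cultures were lower and 2 higher in EVs. After adjustment over the 6 clusters no difference passed 0.05 by the exact test, and these comparisons had been chosen once the data were known.

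The loci were also set against the transcripts in which GENCODE places them. RefSeq places these loci apart from other genes, except Mir19b-1, which it places partly over Mir17hg. Loci that RefSeq places inside another gene had no count, so the counted host may be a stretch beside the locus. Whether the counted hosts span the loci was not tested. In cells the 5 loci of the Mir17 cluster had 4074 counts and Mir17hg 6465, and in EVs they had 96 and 13. The loci thus took 38.7% of these counts in cells and 88.1% in EVs. By culture the share in cells was 76.4, 50.9, 28.4, 41.2, 24.3 and 23.04% for 3F, 4F, 5F, 3M, 4M and 5M, and in EVs it was 93.3, 85.7, 86.2, 100, 87.5 and 86.4%. EVs had the higher share in 6 of 6 cultures (exact permutation test, p = 0.03125, adjusted over 6 hosts 0.0625). Mir17hg itself differed between EVs and cells by -4.64 on the log2 scale (SE 0.392, adjusted p = 3.02e-13, edgeR), larger than that of any of the 16 tested microRNA loci.

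A like order held for Mir7652 and G3bp1. Mir7652 took 3.97% of the counts of the 2 together in EVs (387 of 9744) and 0.386% in cells (422 of 109274), and the share was 2.87 to 5.28% over cultures in EVs and 0.267 to 0.500% in cells, so that the ranges were apart (6 of 6 cultures higher, exact permutation p = 0.03125, adjusted 0.0625). G3bp1 changed by 0.70 on the TMM scale (adjusted p = 0.000282, edgeR) and by -0.04 with library totals. Mir3061, in an exon of the phosphatase gene Ppp2ca, took 0.555% in EVs and 0.117% in cells of the counts of both (18 of 3244 counts in EVs), higher in 6 of 6 cultures with the same exact p and adjusted p.

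For the other hosts the shares were not told apart by the exact test. Mir99a, Mirlet7c-1 and Mir125b-2 took 8.74% of their counts with Mir99ahg in EVs and 3.32% in cells, higher in 5 of 6 cultures (exact permutation p = 0.0625, adjusted 0.0938). Mir3098 in Mrpl51 took 1.68 against 0.742%, and Mir674 in an intron of Spred1 1.66 against 0.786%, each higher in 4 of 6 cultures. Whether strand or overlap rules of the counting shift reads between a locus and its host was not tested.

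**Figure D4:**
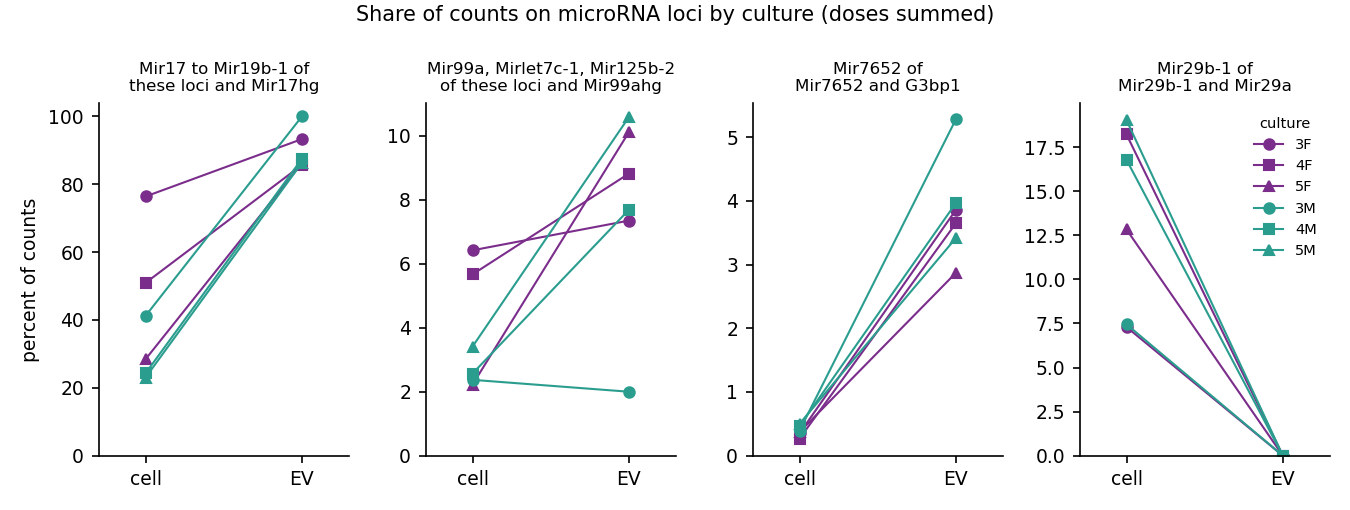
Percent of counts on microRNA loci in cells and EVs, with a line for each of the 6 cultures (doses summed), for the Mir17 cluster against Mir17hg, for Mir99a, Mirlet7c-1 and Mir125b-2 against Mir99ahg, for Mir7652 against G3bp1 and for Mir29b-1 against Mir29a. All 6 lines rise in the panels of Mir17hg and G3bp1, and all 6 fall to 0 in the panel of Mir29b-1.

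Some loci have a mature strand that occurs at more than 1 genomic site. The 9 such loci (Mir29b-1, Mirlet7c-1, Mir682, Mir125b-2, Mir219a-1, Mir24-2, Mir344-2, Mir3098 and Mir19b-1) had 49 counts in EVs and 1920 in cells, a pooled level of 0.834 CPM against 2.85 CPM. Of the 1920 cell counts, 649 were on Mir29b-1 and 505 on Mirlet7c-1. Mir682 was not lower in EVs, at a pooled 0.374 CPM against 0.279 CPM in cells, and with summed doses it was higher at 0.92 on the log2 scale (adjusted p = 0.0284, edgeR). Mir3098 stood at 0.119 CPM in EVs and 0.113 CPM in cells. The 28 loci with each mature strand at 1 site, without Mir6240, had 1560 and 32910 counts, which is 26.6 CPM in EVs and 48.9 CPM in cells. The part of multiple alignment in these differences was not tested.

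The genes of the microRNA pathway were read in the same fits. Of 26 such genes 25 were tested between EVs and cells, and 7 were higher and 15 lower in EVs on the TMM scale (4 and 19 with library totals). That is 22 of 25, where 80.5% of all genes passed (83.2% with library totals), so passing was again the common case. Ago2, the Argonaute that can cut its target, stood at 327 ± 178 CPM in the EVs (SD, n = 18) and at 60.7 ± 16.02 CPM in the cells (SD, n = 18), or 3.12 on the log2 scale (adjusted p = 6.65e-19, edgeR). Ago1 was at 1.87, Tnrc6b, a scaffold of silencing complexes, at 1.55 and Lin28b, which binds let-7 precursors, at 2.52, and these 4 mRNAs were higher under both scalings. Ago3, Ago4 and Tut7 were higher on the TMM scale, but with library totals Ago3 was at 0.00 and Ago4 and Tut7 changed sign.

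Several genes of microRNA processing and export were lower in EVs. Dgcr8 was at -1.18, Xpo5 at -1.31 and Ddx5, a helicase of the Drosha complex, at -2.73 on the log2 scale, with Ddx5 at 44.9 ± 13.9 CPM in the EVs and at 514 ± 84.4 CPM in the cells (each SD, n = 18). Dicer1 was at -0.35 (adjusted p = 0.00113, edgeR), and Drosha at 0.10 did not pass on the TMM scale and was lower with library totals (-0.71).

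The next comparisons asked whether ethanol changed the loci, with the culture as a block. At neither dose and in neither location did any of the 40 loci pass an adjusted p of 0.05 by edgeR, with 0 of 5 tested in EVs and 0 of 28 tested in cells at both doses. DESeq2 called none either, but it gave an adjusted p for only 1 of the 5 loci in EVs and, at 320 mg/dL, for 16 of the 28 in cells. At an unadjusted p under 0.05 the counts were 0 and 1 in EVs at 120 and 320 mg/dL and 1 and 2 in cells. Of all genes, 0.00842% passed by edgeR in EVs at 120 mg/dL and 0.0842% at 320 mg/dL (0.0168% higher, 0.0673% lower). In cells these were 0% and 0.0393% (0.0225% higher, 0.0169% lower), so calls by edgeR were rare. By DESeq2, of the genes given an adjusted p, 0.280% and 6.50% passed in EVs at 120 and 320 mg/dL, and 0.0112% and 0.788% in cells. Both doses were compared with the same control libraries.

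In EVs, Mir7652 was at 1.92, 8.12 and 19.97 CPM (lowest, median and highest of 6) in controls, at 1.78, 6.68 and 10.4 CPM at 120 mg/dL and at 1.54, 5.05 and 10.6 CPM at 320 mg/dL. In cells it was at 0.512, 0.656 and 0.913 CPM, at 0.336, 0.682 and 0.9901 CPM and at 0.226, 0.373 and 0.980 CPM in the same order. At 320 mg/dL it was below control in 6 of 6 cultures in both locations on the TMM scale, whereas in CPM 4 of 6 were lower in cells. The fit put it at -0.47 on the log2 scale in EVs (SE 0.1696, unadjusted p = 0.0132, adjusted p = 0.266) and at -0.47 in cells (SE 0.2124, adjusted p = 0.574), both from edgeR. At 120 mg/dL it was -0.20 in EVs (adjusted p = 0.895, edgeR; 5 of 6 lower) and -0.03 in cells (4 of 6 lower). The ranges of the doses overlapped in both locations, and none of these differences passed.

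Mirlet7i in EVs had medians of 2.43, 2.81 and 3.41 CPM at 0, 120 and 320 mg/dL, with highest values of 3.74, 4.54 and 4.81 CPM. Its log2 fold changes were 0.63 (SE 0.374, adjusted p = 0.835) and 0.79 (SE 0.374, adjusted p = 0.422) by edgeR, each higher in 4 of 6 cultures. For Mir5099 the EV medians were 3.84, 2.45 and 2.45 CPM, with log2 fold changes of -0.48 and -0.33, and 5 and 4 of 6 cultures lower. Neither locus passed at either dose.

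In cells at 320 mg/dL, 25 of the 28 tested loci had a positive log2 fold change and the median was 0.49, against -0.01 over all genes. This rested on culture 3F. Its 320 mg/dL cell library was the highest of the 18 cell libraries for 23 of the 40 loci. Mirlet7i stood there at 76.5 CPM, against a median of 8.61 and a highest value of 19.4 CPM in the other 17, a ratio to that median of 8.88. The ratio was 8.51 for Mir17 (12.7 CPM), 8.18 for Mir20a (17.5 CPM), 6.27 for Mir1983 (49.5 CPM), 2.53 for Mir6240 and 1.82 for Mir5099, whereas Mir7652 (0.226 CPM) and Mir3061 (1 count) were below the other libraries' medians. Without that library alone, left out after the data were seen, 16 of 28 loci had a positive log2 fold change and the median was 0.08, and without the whole of set 3 these were 9 of 28 and -0.20.

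Other small RNAs were high in the same library. It was the highest of 18 for 7 of 10 classes, with transfer RNA genes at 7124 CPM (median of the other 17, 2558), small nucleolar RNAs at 5917 (1589), Y RNAs at 3460 (1022) and 5S ribosomal RNA at 11.03 (1.65). It was second for spliceosomal RNAs and for the RNase P and MRP RNAs, and 16th of 18 for 7SL RNA, at 33.4 CPM against a median of 57.0. Its total count was the lowest of the cell libraries. The part of these in the microRNA levels was not tested.

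**Figure D5:**
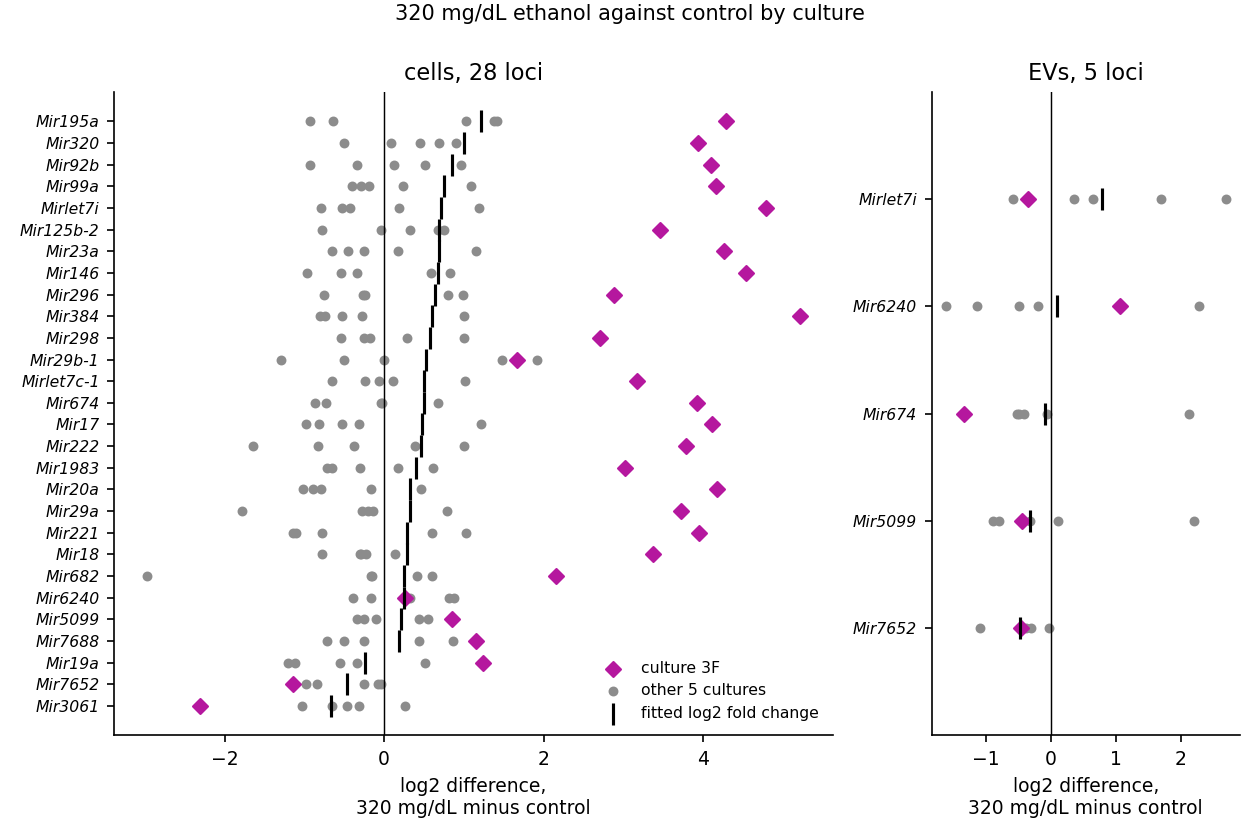
Log2 difference between 320 mg/dL and control for each culture, for the 28 microRNA loci tested in cells (left) and the 5 tested in EVs (right). Purple diamonds are culture 3F, grey points the other 5 cultures, and black ticks the fitted log2 fold change. In cells the diamonds of most loci lie far to the right of all other points, and for Mir7652 all 6 cultures lie left of 0 in both panels on this TMM scale.

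In cells at 120 mg/dL, Mir3061 had the lowest unadjusted p, at -0.79 on the log2 scale (SE 0.315, adjusted p = 1.00, edgeR), lower in 5 of 6 cultures, and -0.67 at 320 mg/dL (adjusted p = 0.597, 5 of 6 lower). Mir320 was at 0.48 and 1.01 at the 2 doses, the latter with an adjusted p of 0.545 by edgeR and 5 of 6 cultures higher. Over the 28 loci the median was 0.08 at 120 mg/dL.

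Whether ethanol shifted loci between cells and EVs was asked as a change of the EV to cell ratio. Of 22 loci tested, 0 passed at 120 and 0 at 320 mg/dL by edgeR, 1 and 1 at an unadjusted p under 0.05, and 0 by DESeq2. Of all 18728 genes 0.00534% and 0% passed by edgeR, and 0.0107% and 0% by DESeq2. The loci with an unadjusted p under 0.05 were Mirlet7c-1 at 120 mg/dL (log2 change of the ratio 2.59, SE 1.23) and Mir17 at 320 mg/dL (-2.44, SE 1.02), and both rest on few EV counts, 11 for Mirlet7c-1 and 29 for Mir17 over all EV libraries.

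Female and male libraries were compared last, with the 3 libraries of a culture taken as independent. In cells 1 of 27 tested loci passed, where 5.83% of 17052 genes did (3.20% higher and 2.63% lower in females). This was Mir6240, at 14.9, 32.6 and 49.6 CPM in the 9 female and 3.09, 9.54 and 19.4 CPM in the 9 male cell libraries. The ranges met between 14.9 and 19.4 CPM. The log2 fold change of females over males was 1.87 (SE 0.357, adjusted p = 0.00563, edgeR), higher in 3 of 3 pregnancies. It no longer passed by edgeR without set 5 (1.76, adjusted p = 0.130), with counts summed over doses (1.74, adjusted p = 0.509) or without culture 5M (1.80, adjusted p = 0.0643), and then no other locus did.

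In EVs the order of Mir6240 was not the same in each pregnancy. Female EV libraries had 20.4, 68.0 and 196 CPM and male ones 26.8, 87.0 and 533 CPM. With doses summed on the TMM scale, females were higher in sets 3 and 4 and lower in set 5, but in sets 3 and 4 the order also turned between doses in CPM. In set 3 females had 20.45, 67.99 and 40.05 CPM and males 51.27, 62.55 and 26.78 CPM at 0, 120 and 320 mg/dL. In set 4 females had 99.29, 55.38 and 196.4 CPM and males 86.99, 101.9 and 61.54 CPM. The log2 fold change was -0.82 (SE 0.725, adjusted p = 0.452, edgeR), and 0.98 without culture 5M. The libraries of 5M were thus the highest among EVs, at 288 to 533 CPM, and in cells, at 4.84 to 12.6 CPM, among the lower ones.

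Of 4 loci tested by sex in EVs, 0 passed by edgeR, 1 had an unadjusted p under 0.05 and 1 passed by DESeq2. Of all genes, 11.1% of 11037 passed by edgeR (7.03% higher and 4.06% lower in females) and 22.3% of 10929 by DESeq2. Mir7652 was the locus with the low p. Its level was 1.54, 6.13 and 8.89 CPM in female and 3.45, 9.10 and 19.97 CPM in male EV libraries, and the log2 fold change was -0.76 (SE 0.291, adjusted p = 0.0896, edgeR), lower in females in 3 of 3 pregnancies. With pregnancy as a block it passed, at -0.85 and an adjusted p of 0.00188 by edgeR, where 27.1% of 11037 genes passed. However, that fit still takes the 3 doses of a culture as replicates. With counts summed over doses it did not pass (-0.93, adjusted p = 0.355, edgeR), nor did any of 10 loci tested. Without set 3 it passed (-1.10, adjusted p = 0.0230), and without set 4 (-0.81, adjusted p = 0.251) or set 5 (-0.54, adjusted p = 0.230) it did not, all by edgeR. In cells Mir7652 was at -0.52 (adjusted p = 0.172, edgeR), also lower in 3 of 3 pregnancies. Other loci of the cells had an unadjusted p under 0.05 in edgeR's fit without passing, among them Mirlet7i (1.37, adjusted p = 0.152), Mir1983 (1.29, adjusted p = 0.0736) and Mir92b (1.23, adjusted p = 0.114), and 12 loci did in all, Mir6240 included. The 320 mg/dL library of culture 3F is among the female ones, and without it 3 loci had an unadjusted p under 0.05 by edgeR.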

How the data were processed

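Whole-RNA libraries of EVs and of their cells were examined, 36 in all. The deposited values are raw counts per gene: the authors trimmed the reads with Trimmomatic, removed reads under 15 bases and duplicates, aligned them with STAR to mm39 and counted them with HTSeq, without normalization. The strand setting, the annotation release and the treatment of multiply aligned reads are not given in the sources used here. Rows named Mir followed by a digit, or Mirlet7, were taken as microRNA loci, host gene entries were left out, and a summed count of 30 was required. The members, gene lists and tests were chosen with earlier results of these data known.

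CPM is the count per 1000000 counts of a library. Genes that passed filterByExpr were tested with edgeR 4.0.16 (R 4.3.3) by quasi-likelihood, with TMM scaling and Benjamini-Hochberg adjustment over all of them at 0.05, and DESeq2 1.42.0 was an alternative. EVs were compared with cells with sex and dose as terms, doses with culture as a block, the change of the EV to cell ratio with the pair of libraries as a block, and sexes with dose as a term, which takes the 3 libraries of a culture as independent. Shares of clusters and hosts were compared by two-sided exact permutation of signs over cultures (scipy 1.17.1). In simulated counts for 15281 genes, the EV against cell step recovered 94 of 100 genes changed 2-fold and 100 of 100 changed 4-fold. For the ratio at 320 mg/dL (18728 genes) these were 5 and 80 of 100. The changed genes were drawn from those above the median level of the genes tested, so these figures do not apply to loci of low level.

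Same-numbered libraries come from the same pregnancy per the labels. Deviations from the group means correlated between doses of a culture in cells (r of 0.333 to 0.781, 18 of 18 pairs over 0.1) and in EVs (15 of 18), less between an EV library and its cells (7 of 18) and between sexes of a pregnancy (3 of 9 in each location). Only the fits on counts summed over doses and the exact tests rest on 6 cultures as replicates. The EV against cell and sex fits treat the libraries of a culture as independent, and the dose fits measure the spread within cultures. Counts of cultures or pregnancies that moved in one direction are on the TMM scale, with doses summed where they do not enter the comparison. Named loci were the 10 with the highest mean CPM, the 10 with the most EV counts, listed clusters and families, those that passed in one direction in every culture, and those beside the limit, and other loci were named after their values were seen. Neighbouring genes were taken from RefSeq (GRCm38.p6), which matched all 1180 loci by symbol, and positions and host transcripts from GENCODE on GRCm39. Other copies of a hairpin were sought in the genome at 80% identity over 50 bases or more.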

Additional observations from a re-analysis of the deposited data

Results flagged for a closer look

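Among 48 groups of 6 libraries tested, 10 held a library far from the other 5 by Dixon's criterion. Chance gives this in about 1 group in 20 when groups are independent and values normally distributed. These groups were not independent, as the same libraries entered several overlapping measures, so the rate is no test of an excess. The share of all counts on the 40 loci was 564.6 CPM in the control EV library of culture 5M (next library 167.1) and 420.9 in its 120 mg/dL EV library (next 157.1), where Mir6240 stood at 532.6 CPM (next 135.7) and 396.7 CPM (next 119.8). In the 320 mg/dL cell library of culture 3F the share was 318.8 CPM (next 108.4), or 279.8 without Mir6240 (next 87.27), and Mirlet7i was at 76.45 CPM (next 11.65), Mir1983 at 49.46 CPM (next 13.03) and Mir674 at 17.88 CPM (next 4.41). Mir674 was also at 15.45 CPM in the control EV library of culture 4F (next 6.045).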

How the results depend on the processing

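EV counts limit what can be seen: 25 of the 40 loci had under 30 counts in all EV libraries together, and 5 could be tested by dose in EVs. Without Mir6240 the median share of all counts on the loci fell from 114 to 31.6 CPM in EVs and from 90.7 to 71.9 CPM in cells, and the order of the medians turned. Of values for single loci, 432 kept direction and side of the threshold, 13 gained and 19 lost it, and 27 changed sign; the causes were not tested unless fewer libraries or genes entered. Between EVs and cells, 23 loci passed without the filter (70.9% of all genes) and 17 with counts summed over doses (70.8%). After thinning to the smallest total 2 passed (79.0%), when only 2 were tested. With each set left out 7 to 11 passed (7 without set 4), where 75.5 to 77.3% of all genes did. By sex in EVs, 1 locus passed with DESeq2 (22.3% of all genes), 2 without the filter (6.10%) and 1 with the replicate block (27.1%). With summed counts 0 passed (0%), and with a set left out 0 to 2 (0.0203 to 23.1%). In cells 3 passed with DESeq2 (10.9%), 0 with summed counts (0.0334%), 0 without culture 5M (1.33%) and 0 to 2 with a set left out (1.17 to 12.3%). The block of culture and dose let Mir20a pass and that of pregnancy Mir7652 in EVs, and it changed no other call. Leaving out the 320 mg/dL cell library of culture 3F, the 120 mg/dL EV library of culture 3M or culture 5M was chosen after seeing the data.

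With library totals the EV against cell value changed sign for Mir146 (-0.24), Mir674 (-0.30), Mir23a (-0.72) and Mir99a (-0.79), and without the filter for the same 4 (-0.10, -0.21, -0.56 and -0.62). With summed counts Mir23a was at -0.21 and Mir99a at -0.28, without culture 5M at -0.043 and -0.23, and with a set left out at -0.70 to 0.65 and -0.69 to 0.49; Mir99a was at -0.031 with the replicate block. Mir6240 at 320 mg/dL in EVs was at -0.31 with library totals, -0.071 with only the 2 doses and -0.62 to 0.75 with a set left out, and at 120 mg/dL in cells at -0.00316 to 0.53. Its sex difference in EVs was 0.98 without culture 5M and -1.75 to 0.68 with a set left out. Its EV to cell ratio at 120 mg/dL was -0.14 with library totals, -0.21 without the 120 mg/dL EV library of culture 3M and -0.52 to 0.55 with a set left out, and at 320 mg/dL 0.25 without the 320 mg/dL cell library of culture 3F and -1.53 to 0.43 with a set left out.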
